A study of Mus musculus with 10 samples.

Results

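The genes described here are 7 that belong to complement C1q, Fc receptor and DAP12 signaling, namely C1qa, C1qb, Fcgr3, Fcer1g, Tyrobp, Clec5a and Sirpb1a. They were taken by name from the authors' deposited gene tables, which name 251 of the 35556 probesets on the arrays, and each of the 7 has 1 probeset there. All 7 come from the table of tumor cell genes, which the authors had chosen for a difference between hosts, with a largest unadjusted p of 0.00996 in the authors' deposited table. That choice rests on the tumor cell arrays, so the tumor cell differences below are a description with no test. The comparison of cell types took no part in the authors' choice. The 7 genes were, however, picked as a group with earlier results of these data known. The title of that table calls its genes unique to tumor cells. Whether genes that also differed in macrophages were dropped is not stated in the sources used here, and Zfp248 stands in both of the authors' tables.

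The arrays measured RNA from 4 groups. They are CD206hi tumor-associated macrophages (TAMs) from b3KOM mice (3 arrays) and from wild-type (WT) mice (3 arrays), and PyMT-BO1-GFP-Luc tumor cells from b3KOM hosts (2 arrays) and from WT hosts (2 arrays). The b3KOM mice lack integrin beta3 in their macrophage lineage. The sources used here do not give the promoter that drives the deletion, the strain or the age of the mice. All mice of both genotypes received 100000 of the same mammary tumor cells, which carry green fluorescent protein and luciferase, in the mammary fat pad, and tumors were taken on day 10. Tumor cells therefore have no deletion of their own in either host. Cells were sorted and used without culture, and how many mice stand behind an array is not stated, so p-values measure the spread between these arrays, which may in part be technical.

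C1q is the recognition molecule of the classical complement pathway. It is built from the A, B and C chains, binds antibody complexes and dying cells, and is made largely by macrophages. Activating Fc receptors bind the constant part of immunoglobulin G and signal through the common gamma chain Fcer1g, and a further set of myeloid surface receptors signals through the adaptor DAP12, the product of Tyrobp. Both adaptors carry an immunoreceptor tyrosine-based activation motif (ITAM), which recruits the kinase Syk once it is phosphorylated.

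RefSeq holds a current gene of the same symbol for all 7 members, and its promoter table (build GRCm38.p6, 250 bases before to 50 after a gene's start) has an entry for C1qb, Fcgr3, Fcer1g, Clec5a and Sirpb1a. The entries were searched on both strands for GAGGAA, the core letters of sites for the myeloid factor PU.1, for TGANTCA, the AP-1 motif, and for the interferon-stimulated response element. GAGGAA stood in 3 of the 5 members, C1qb, Fcgr3 and Clec5a, and in 28.3% of all 32851 promoter entries. These 3 promoters are shown because they hold the motif. The pattern of levels described below is shared by all 7 members, among them Fcer1g and Sirpb1a, whose entries lack GAGGAA. C1qb lies on the minus strand at chr4:136886151-136886450, Fcgr3 on the minus strand at chr1:171059354-171059653 and Clec5a on the minus strand at chr6:40585756-40586055. Each is written 5′ to 3′ on its gene's strand. Capitals mark GAGGAA or, where the motif lies on the opposite strand, its reverse complement TTCCTC.
C1qb: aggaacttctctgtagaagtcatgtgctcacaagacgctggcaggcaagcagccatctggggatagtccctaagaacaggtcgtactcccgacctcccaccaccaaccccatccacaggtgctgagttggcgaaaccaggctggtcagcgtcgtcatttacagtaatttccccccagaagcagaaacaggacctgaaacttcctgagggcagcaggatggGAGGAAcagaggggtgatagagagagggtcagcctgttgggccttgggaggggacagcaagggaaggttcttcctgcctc
Fcgr3: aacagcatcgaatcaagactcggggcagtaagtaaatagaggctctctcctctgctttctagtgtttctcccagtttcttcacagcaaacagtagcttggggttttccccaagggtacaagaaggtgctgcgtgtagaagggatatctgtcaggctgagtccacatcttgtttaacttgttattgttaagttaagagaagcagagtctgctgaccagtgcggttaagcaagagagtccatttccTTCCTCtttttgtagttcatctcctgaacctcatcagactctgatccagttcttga
Clec5a: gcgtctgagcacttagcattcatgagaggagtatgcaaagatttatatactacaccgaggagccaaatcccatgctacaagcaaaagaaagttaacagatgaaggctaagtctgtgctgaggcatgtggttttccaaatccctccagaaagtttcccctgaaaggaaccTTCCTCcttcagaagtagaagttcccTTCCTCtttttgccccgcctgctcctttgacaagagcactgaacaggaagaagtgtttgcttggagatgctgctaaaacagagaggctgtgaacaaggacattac
Clec5a held the motif at 2 places, which begin 81 and 55 bases before the start, Fcgr3 at 1 place 6 bases before and C1qb at 1 place 30 bases before. Clec5a and Fcgr3 shared the run ccTTCCTCtttttg of 14 bases, found after the sequences were seen, and it stood in 3 of the 32851 entries, which are the Clec5a entry and both entries of Fcgr3. The interferon-stimulated response element stood in the Sirpb1a entry, against 3.44% of all entries, and TGANTCA in none of the 5 members, against 7.81%. A match describes letters in a window and is not a measured binding site.

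All values are log2 values made by the authors with RMA, a method that subtracts background, gives all arrays a common distribution and summarises the probes of a probeset. Because the arrays are forced to one distribution, a difference is relative to the other probesets of the array. A difference of 1 on this scale is a doubling of signal, and the level of 1 probeset cannot be set against that of another as an amount of RNA. Ranks and words such as bright or dim below describe signal only. The median of the whole value table was 4.19. Arrays of the same cell type correlated across probesets with Pearson's r of 0.981 to 0.985 in TAMs and 0.990 to 0.993 in tumor cells. The label of the TAM arrays was checked on the macrophage list. Of its 14 markers 6 have a named probeset (Csf1r, Cd68, Lyz2, Laptm5, Itgam and Ctss), and all 6 were higher in TAMs than in tumor cells, by 3.42 to 5.67 log2 units. Neutrophil, dendritic cell, T cell, B cell, NK cell, fibroblast and endothelial marker genes have no named probeset and were not analysed here. Of the epithelial or mammary list only Glycam1 is named, with a TAM minus tumor cell difference of -1.52 ± 0.13 (SE). Glycam1 lay below the table median on every TAM array and on 1 tumor cell array from WT hosts, so this difference has no exact size. It was -2.28 in b3KOM mice and -0.75 in WT mice. Itgb3 has no named probeset, so the deletion itself was not checked here.

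The comparison of cell types shows in which sorted population these genes had the higher signal. In TAMs minus tumor cells, all 7 genes were higher, with a median of 5.05 log2 units. The 6 genes other than Clec5a were higher by 3.97 to 5.49 log2 units, which is 15.7-fold to 44.9-fold, and Clec5a, close to background in tumor cells, has no exact size. Each of those 6 was called, at limma adjusted p between 3.21e-10 and 7.08e-10, and 24.9% of the 20246 probesets tested were called higher in TAMs. Clec5a passed the filter for testing only through the TAM arrays, where it is high, so its call is not counted. The median difference over all tested probesets was -0.14. Within each host genotype the direction was the same, and for those 6 genes the differences were 3.66 to 4.97 in b3KOM mice and 4.29 to 6.005 in WT mice.

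The C1q chains were among the brightest probesets of the TAM arrays. C1qa, which encodes the A chain, measured 11.75, 11.67 and 11.67 on the b3KOM TAM arrays and 11.67, 11.65 and 11.73 on the WT TAM arrays. It measured 7.05 and 7.02 in tumor cells from b3KOM hosts and 6.63 and 6.53 in tumor cells from WT hosts. TAMs of both genotypes overlapped, tumor cells of the 2 hosts did not, and every TAM array was far above every tumor cell array, with a TAM minus tumor cell difference of 4.88 ± 0.06 (SE). C1qb, the B chain, stood at 12.15, 12.12 and 12.05 in b3KOM TAMs and at 12.07, 12.14 and 12.07 in WT TAMs. In tumor cells C1qb stood at 7.28 and 7.47 with b3KOM hosts and at 6.83 and 6.63 with WT hosts. Its pattern was the same, with overlapping TAMs, separate tumor cell groups and a cell type difference of 5.05 ± 0.07 (SE).

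The Fc receptor genes followed. Fcgr3 encodes Fc gamma receptor III, an activating receptor whose probeset may also pick up the related Fcgr2b and Fcgr4 transcripts. It measured 11.69, 11.65 and 11.58 in b3KOM TAMs and 11.61, 11.64 and 11.76 in WT TAMs. In tumor cells it measured 6.75 and 6.91 with b3KOM hosts and 6.30 and 6.21 with WT hosts. The TAM ranges overlapped, and both tumor cell arrays from b3KOM hosts lay above both from WT hosts. Fcer1g, the signaling chain that Fcgr3 needs at the cell surface, measured 12.49, 12.47 and 12.42 in b3KOM TAMs and 12.43, 12.50 and 12.44 in WT TAMs. In tumor cells it measured 8.70 and 8.90 with b3KOM hosts and 8.16 and 8.18 with WT hosts. Of the 7 genes Fcer1g had the smallest cell type difference, 3.97 ± 0.06 (SE) or 15.7-fold, against 5.11 ± 0.07 (SE) or 34.5-fold for Fcgr3. On the tumor cell arrays Fcer1g ranked at the percentiles 87.95 to 92.04 of all probesets, and on the TAM arrays at 99.55 to 99.65.

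Tyrobp, the DAP12 adaptor, measured 12.18, 12.18 and 12.15 in b3KOM TAMs and 12.21, 12.16 and 12.26 in WT TAMs. It measured 8.11 and 8.31 in tumor cells from b3KOM hosts and 7.27 and 7.38 in tumor cells from WT hosts. The b3KOM and WT TAMs overlapped, while the tumor cell arrays from b3KOM hosts lay above both arrays from WT hosts. Its cell type difference was 4.42 ± 0.07 (SE), or 21.4-fold.

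Both remaining genes encode receptors that pair with DAP12. Clec5a, also called MDL-1, is a C-type lectin receptor. It measured 9.05, 9.15 and 8.87 in b3KOM TAMs and 9.28, 9.03 and 9.16 in WT TAMs, and 3.79 and 3.67 in tumor cells from b3KOM hosts against 2.79 and 2.93 in those from WT hosts. All 4 tumor cell arrays lay below the table median of 4.19, so the cell type difference of 5.79 ± 0.08 (SE) and the host difference rest on signal close to background and give no exact size. Sirpb1a, a signal-regulatory protein of the activating kind, has close copies in Sirpb1b and Sirpb1c whose transcripts its probeset may share. It measured 10.46, 10.11 and 10.38 in b3KOM TAMs and 10.54, 10.38 and 10.56 in WT TAMs, and 5.29 and 5.41 in tumor cells from b3KOM hosts against 4.37 and 4.61 in those from WT hosts. The TAMs again overlapped and the tumor cells did not, and the cell type difference was 5.49 ± 0.09 (SE).

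**Figure D1:**
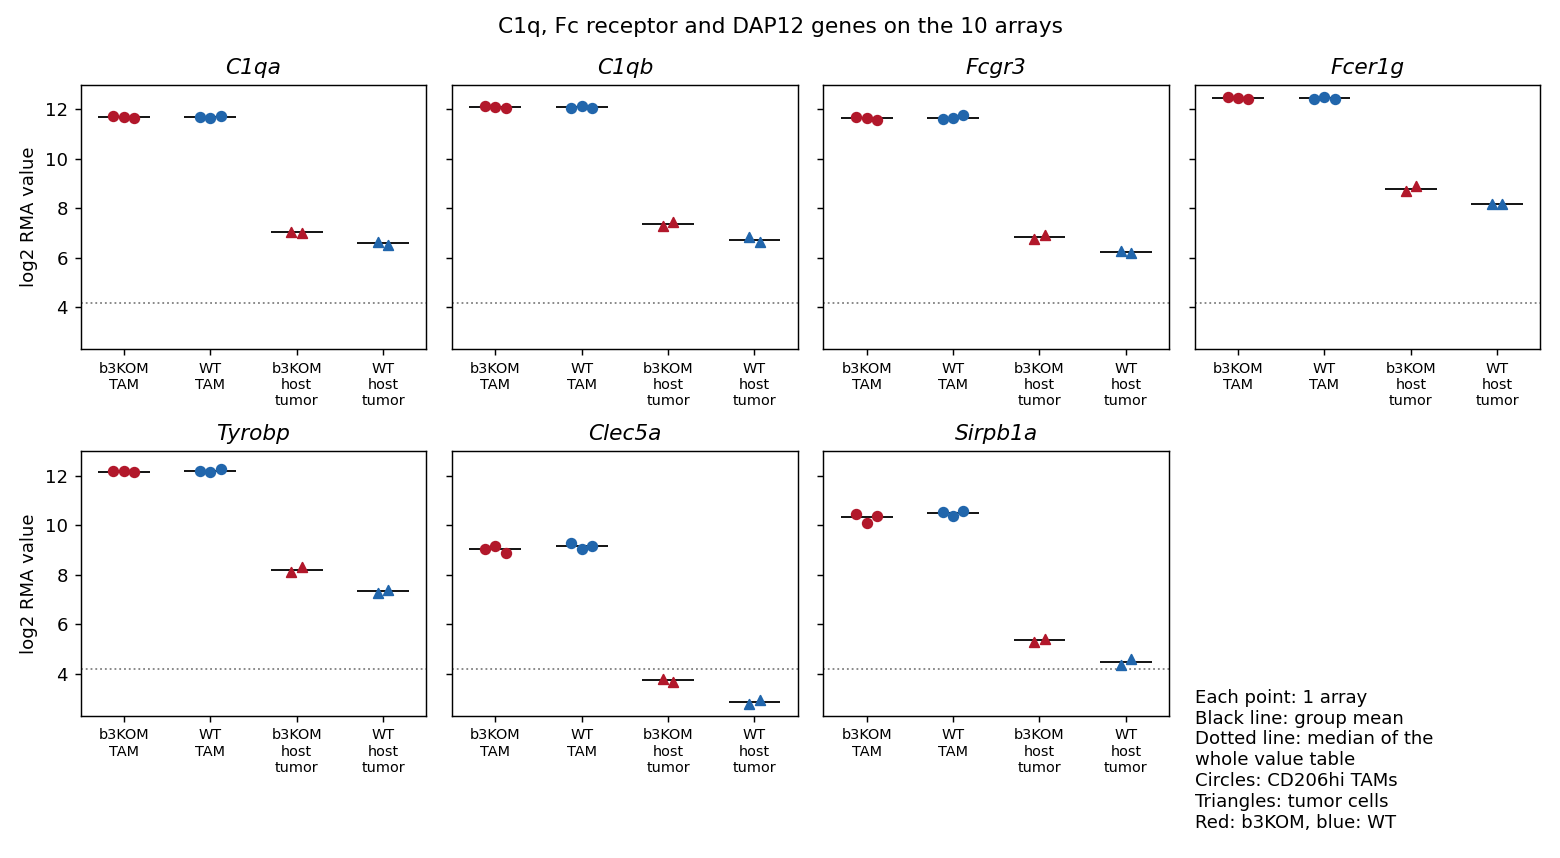
Log2 RMA value (vertical axis) of each gene on the 10 arrays, by group (horizontal axis), where a point is 1 array, a black line the group mean and the dotted line the median of the whole value table, 4.19. In every panel the b3KOM and WT TAM points overlap, the tumor cell points lie at least 3.52 log2 units lower, and the 2 tumor cell arrays from b3KOM hosts lie above the 2 from WT hosts.

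The comparison of TAM genotypes asks whether CD206hi TAMs without integrin beta3 express these genes at another level. No such change was detected, in genes whose choice may have left out those that differed in TAMs. None of the 7 passed the limma test in b3KOM minus WT, where adjusted p ran from 0.858 to 0.999, and over all tested probesets 0.0148% were called. At an unadjusted p under 0.05 there were 0 of the 7, beside 6.42% of all tested probesets, so this count says little about 7 genes. The arrays of the genotypes overlapped for all 7 genes, while 4.68% of tested probesets had every b3KOM TAM array above every WT TAM array and 4.11% had every one below. The 7 differences had a median of -0.029, beside 0.0058 over all tested probesets, with 3 above 0 and 4 below.

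The size of change that these arrays leave room for differed between the genes. C1qa differed by 0.016 ± 0.074 (SE), with a 95% confidence interval of -0.15 to 0.19, and C1qb by 0.013 ± 0.090, with an interval of -0.19 to 0.22. Fcgr3 differed by -0.029 ± 0.086 and Fcer1g by 0.0035 ± 0.081 with an interval of -0.18 to 0.19. The interval of Fcer1g corresponds to a b3KOM TAM signal of 0.881 to 1.14 times that of WT TAMs. Tyrobp differed by -0.039 ± 0.084 (SE), with an interval of -0.23 to 0.15. The dimmer receptors left more room. Clec5a differed by -0.13 ± 0.11 (interval -0.38 to 0.11, adjusted p 0.891 in limma) and Sirpb1a by -0.17 ± 0.12 (interval -0.45 to 0.10, adjusted p 0.858 in limma). For Sirpb1a the lower bound is 0.733 times the WT level. The low value of Sirpb1a came mostly from b3KOM replicate 2, at 10.11, and without that array its difference was -0.069. The difference of Clec5a was -0.056 without b3KOM replicate 3 and -0.070 without WT replicate 1. C1qa, C1qb, Fcgr3, Fcer1g and Tyrobp ranked above 98.2% of all probesets or more on every TAM array, near the bright end of the scale. RMA values there are not strictly proportional to RNA, so their intervals bound signal and not RNA.

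In tumor cells the same 7 genes had higher values with b3KOM hosts than with WT hosts on every array. The authors' choice fixes that each gene differs between hosts, but not the sign. The same table also holds genes lower with b3KOM hosts, such as Iigp1 at -1.11. Because the 7 were picked with earlier results of these data known, their shared sign was not tested. The count of 7 of 7 stands beside 17.2% of all tested probesets with both b3KOM-host arrays above both WT-host arrays. The differences ran from 0.45 to 0.88 with a median of 0.64, beside 7.5e-06 over all tested probesets. C1qa had the smallest, with means of 7.03 ± 0.02 in tumor cells from b3KOM hosts and 6.58 ± 0.07 in those from WT hosts (SD, n = 2 each), or 1.37-fold. C1qb was 1.56-fold higher, Fcgr3 1.49-fold and Fcer1g 1.55-fold.

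The DAP12 genes had the larger differences of the set. Tyrobp averaged 8.21 ± 0.14 in tumor cells from b3KOM hosts and 7.32 ± 0.08 in those from WT hosts (SD, n = 2 each), or 1.84-fold. Sirpb1a averaged 5.35 ± 0.08 with b3KOM hosts and 4.49 ± 0.17 with WT hosts (SD, n = 2 each), or 1.82-fold, and Clec5a differed by 0.87 at levels near background. The adaptor and its receptors thus differed by 0.86 to 0.88 on the log2 scale and the C1q and Fc receptor genes by 0.45 to 0.64, a grouping by role seen in the values and not tested. The larger size was not particular to DAP12 genes. Other genes of the table stood on both sides, with 0.90 for Cd52, 0.83 for Pilra and 0.82 for Laptm5, against 0.63 for Sla and 0.45 for Csf1r. Sla lay below the table median on all 4 tumor cell arrays and Pilra on the 2 from WT hosts, so their sizes are not exact. With 1 tumor cell array left out in turn the ranges overlapped slightly, with 0.741 to 0.98 for Sirpb1a and 0.54 to 0.743 for C1qb. Without WT tumor replicate 1 the order of these genes turned, with 0.743 for C1qb and 0.741 for Sirpb1a. In the authors' deposited table the log2 fold changes of WT against b3KOM, which run in the opposite direction, were -0.89 for Clec5a, -0.88 for Sirpb1a and for Tyrobp, -0.63 for Fcer1g and C1qb, -0.57 for Fcgr3 and -0.45 for C1qa. Nearest the edge of that table was C1qa, with a p of 0.00944 and rank 123 by p among 130 rows, and Clec5a had rank 12. The deposited tables list no row beyond that edge, so no value just outside it is given.

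**Figure D2:**
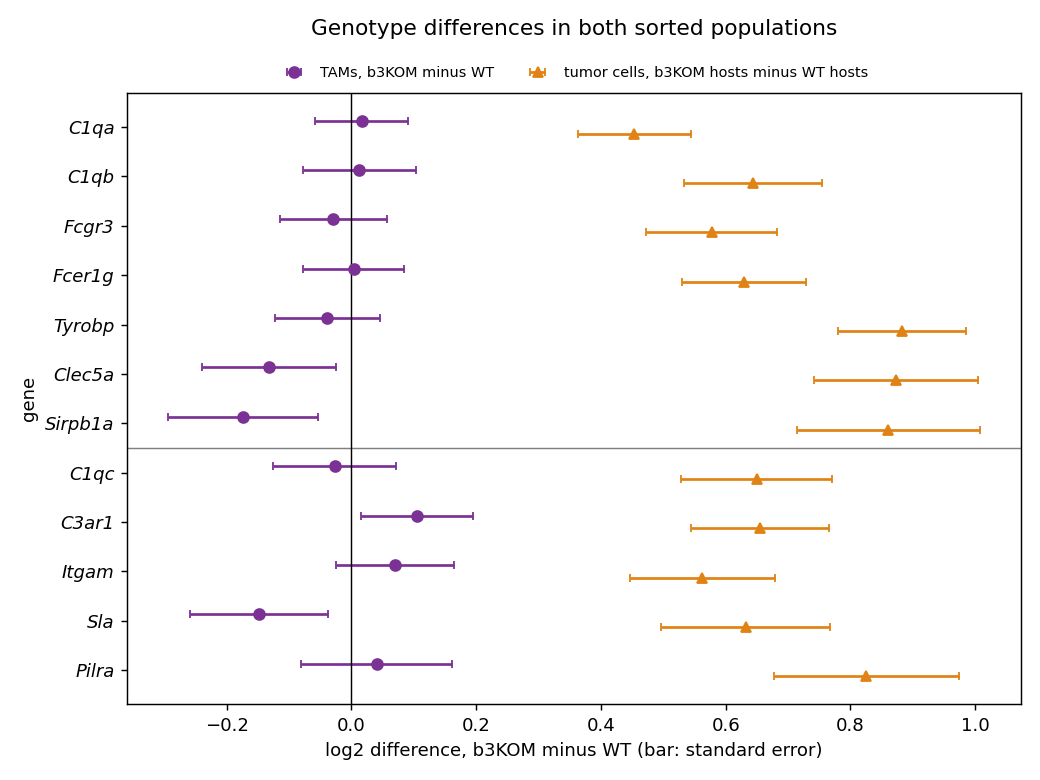
Log2 difference of b3KOM minus WT (horizontal axis) for the 7 genes and, below the grey line, 5 further genes of the same pathways (vertical axis), with circles for TAMs, triangles for tumor cells by host, and bars for the standard error. All TAM differences lie between -0.17 and 0.11 and all tumor cell differences between 0.45 and 0.88, and the tumor cell genes had been chosen by the authors on those arrays.

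The same values were also expressed as a share of the TAM level, after the log2 values were turned back to a linear scale. In tumor cells Fcer1g stood at 7.92% of its mean TAM level with b3KOM hosts and at 5.12% with WT hosts. Tyrobp stood at 6.34% with b3KOM hosts and 3.44% with WT hosts. The adaptors thus had the highest shares. C1qa stood at 3.97% with b3KOM hosts and 2.90% with WT hosts, C1qb at 3.78% with b3KOM hosts and 2.42% with WT hosts, and Fcgr3 at 3.54% with b3KOM hosts and 2.37% with WT hosts. Sirpb1a stood at 3.004% with b3KOM hosts and 1.65% with WT hosts, and Clec5a, near background, at 2.44% with b3KOM hosts and 1.33% with WT hosts. The shares were thus unlike between genes within 1 host, and the step between hosts ran from 1.07 percentage points for C1qa to 2.90 for Tyrobp. RMA values are not strictly proportional to RNA at either end of the scale, so these shares are approximate.

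Named cell type markers also had higher values with b3KOM hosts. They too are named only through the table of tumor cell genes, so a difference between hosts was fixed by the authors' choice, but not its sign. The shared sign was not tested, and 8 of the 14 macrophage markers have no named probeset. The 6 named macrophage markers had higher values with b3KOM hosts, by 0.45 (Csf1r, a growth factor receptor that macrophages depend on) to 0.82 (Laptm5, a lysosomal protein of blood cells), with a median of 0.62. Their mean level was 7.03 and 7.13 on the tumor cell arrays from b3KOM hosts and 6.50 and 6.40 on those from WT hosts. Lyz2, the lysozyme of myeloid cells, stood at 11.5% of its TAM level with b3KOM hosts and 7.66% with WT hosts, and Csf1r at 2.29% with b3KOM hosts and 1.68% with WT hosts. Pf4, a chemokine of platelets and macrophages and the 1 named gene of 5 on the platelet list, differed by 1.17, with 8.37 and 8.27 in tumor cells from b3KOM hosts and 7.23 and 7.08 in those from WT hosts. Glycam1 differed by 1.57, with 5.79 and 5.53 in tumor cells from b3KOM hosts and 3.78 and 4.40 in those from WT hosts. Its value of 3.78 lies below the table median. The part of these genes in the result was not tested, and macrophage RNA among the sorted tumor cells cannot be told apart in these bulk arrays from RNA of the tumor cells themselves. In TAMs the 6 macrophage markers had a median genotype difference of 0.020, with 0 called in limma and 0 at an unadjusted p under 0.05, beside 6.42% of all tested probesets.

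**Figure D3:**
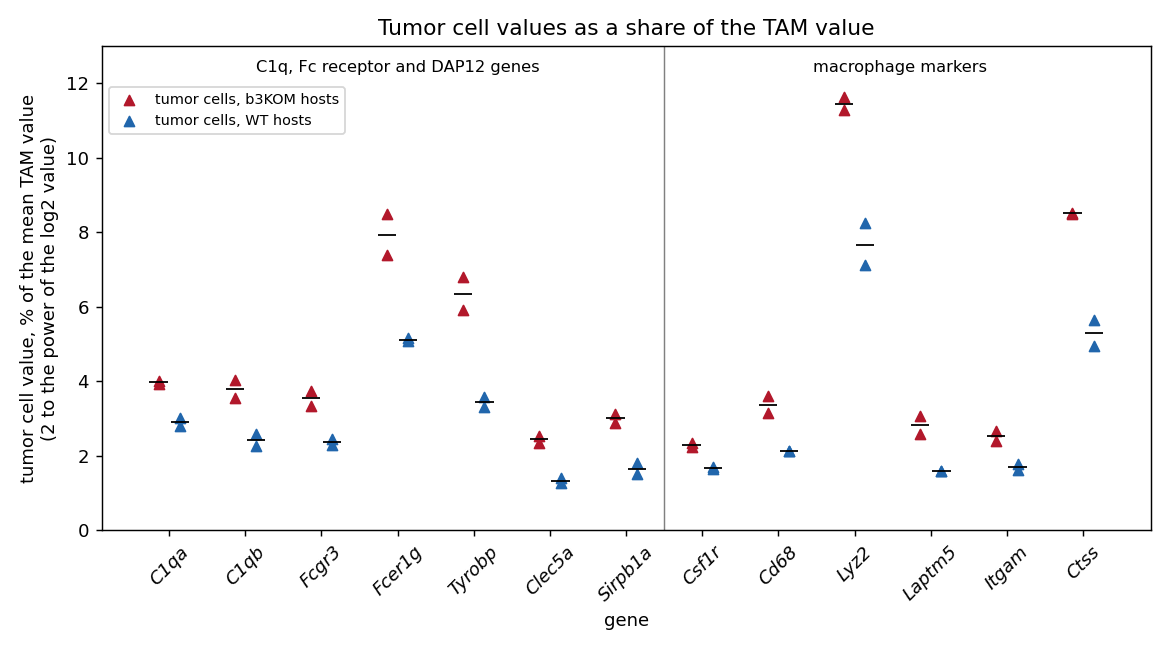
Tumor cell value as a percentage of the mean TAM value of the same gene (vertical axis, linear scale after taking 2 to the power of the log2 value) for the 7 genes and 6 macrophage markers (horizontal axis), where a triangle is 1 array and a black line the mean on the log2 scale. Each gene lies higher with b3KOM hosts (red) than with WT hosts (blue), and Fcer1g, Tyrobp, Lyz2 and Ctss reach 6.34% to 11.5% while the other genes stay at or below 3.97% in the b3KOM-host means.

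Further genes of these pathways were sought by lists of complement genes (20), Fc receptors (10), DAP12 and its partners (17), ITAM kinases and adaptors (16) and inhibitory receptors and phosphatases (11). Besides the 7 genes, 5 have a named probeset, all through the table of tumor cell genes. They are C1qc, the C chain of C1q, whose gene lies between C1qb and C1qa on chromosome 4, C3ar1, the receptor for the complement fragment C3a, Itgam, the alpha chain of complement receptor 3, Sla, an adaptor that dampens receptor signaling, and Pilra, an inhibitory receptor. All 5 were higher in TAMs than in tumor cells, by 4.62 to 5.70 log2 units. Limma called C1qc, C3ar1, Itgam and Pilra higher in TAMs, beside 24.9% of all tested probesets. Sla passed the filter for testing only through the TAM arrays, where it is high, so its call is not counted. Between TAM genotypes limma called none of the 5, with 0 below an unadjusted p of 0.05 beside 6.42% of all tested probesets.

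C1qc measured 12.44, 12.45 and 12.35 in b3KOM TAMs and 12.37, 12.42 and 12.53 in WT TAMs, and 8.03 and 8.24 in tumor cells from b3KOM hosts against 7.59 and 7.37 in those from WT hosts. Its tumor cell difference of 0.65 was close to that of C1qb at 0.64, and its TAM difference was -0.027 ± 0.099 (SE), so the C chain showed the same pattern as the A and B chains. In TAMs C3ar1 differed by 0.11 ± 0.09, Itgam by 0.07 ± 0.09, Pilra by 0.04 ± 0.12 and Sla by -0.15 ± 0.11 (SE). In tumor cells the differences between hosts were 0.83 for Pilra, 0.66 for C3ar1, 0.63 for Sla and 0.56 for Itgam. Sla was below the table median on all 4 tumor cell arrays and Pilra on the 2 from WT hosts. The ITAM kinases themselves, Syk among them, have no named probeset and were not analysed here.

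The TAM and tumor cell comparisons differ for these genes by construction, because the genes were selected in tumor cells. As a description, the TAM difference minus the tumor cell difference ran from -1.04 ± 0.19 (SE) for Sirpb1a and -1.01 ± 0.17 for Clec5a to -0.44 ± 0.12 for C1qa, with a median of -0.63, beside 0.0028 over all tested probesets.

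Genes most like each of the 7 over the 10 arrays were found among the other 250 named probesets by the root mean square difference of log2 values, after each probeset was centred on its own mean. Some of the 7 were near each other. Fcgr3 was the nearest to C1qb, at 0.066 log2 units, with Rgs1, a regulator of G protein signaling, at 0.079 and the lysosomal Cd68 at 0.11. Rgs1 was the nearest to Fcgr3, at 0.059. Ms4a7, a membrane protein of macrophages, was the nearest to C1qa at 0.069, followed by C1qb at 0.12 and Fcgr3 at 0.13. The adaptors had other neighbours. Fcer1g was nearest to Ctss, the protease cathepsin S, at 0.090, then to Bcl2a1b and Bcl2a1a at 0.10 and 0.14, and Tyrobp to Srgn, the granule proteoglycan serglycin, at 0.072, then to Cd52 at 0.11 and C1qc at 0.15. Clec5a was nearest to Sla at 0.16, Laptm5 at 0.17 and Csf1r at 0.18, and Sirpb1a to Laptm5 at 0.15, H2-DMa at 0.16 and Clec4n, the receptor dectin-2, at 0.17. Every neighbour came from the table of tumor cell genes, and the measure includes the gap between TAMs and tumor cells.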

How the data were processed

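Expression was measured on 10 Affymetrix arrays, each from 50 ng of amplified RNA per the labels' protocols. Per the submitters' processing notes, Affymetrix Expression Console and RMA were used, and the log2 values the authors deposited hold 1 number per probeset. The sources used here name no tool version or array model. Per the file headers, the deposited gene tables (122 and 130 rows) hold a log2 fold change (WT over b3KOM), a mean log2 value, a t statistic (a score) and a p-value, read as unadjusted. Their tumor cell fold changes departed from the arrays by 0.023 or less for the 7 genes. No depth applies to arrays, and their number limits the precision.

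Limma 3.58.1 in R 4.3.3 (lmFit, eBayes) fitted a mean for each of 4 groups to the 20246 probesets above the table median on at least 2 arrays, with 6 residual and 2.35 prior degrees of freedom. P-values were adjusted by Benjamini-Hochberg within a contrast, with a threshold of 0.05. The fit was tested on simulated data. Alternatives changed the filter, scaling, moderation, array weights and arrays used. The genes and lists were chosen with earlier results of these data known. The text names the 7 genes, every other list gene with a named probeset, and the 3 nearest probesets to each gene. Promoter sequences are RefSeq's (GRCm38.p6), whose coordinates were used for these sequences only.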

Additional observations from a re-analysis of the deposited data

How the results depend on the processing

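In TAMs, 0 of the 7 genes were called between genotypes in limma under each of 17 alternatives, with the lowest adjusted p at 0.757, and 0 at an unadjusted p under 0.05 with all arrays, beside 6.42% of all tested probesets. Each of the 7 other than Clec5a was called higher in TAMs than in tumor cells under each of 18 alternatives. Signs of the near-zero TAM differences turned with cyclic loess scaling for C1qb (-0.0022) and Fcer1g (-0.012). With 1 array left out in turn the TAM differences ran from -0.011 to 0.038 for C1qa, -0.0080 to 0.039 for C1qb, -0.0099 to 0.027 for Fcer1g and -0.058 to 0.015 for Fcgr3, while those of Tyrobp (-0.064 to -0.012), Clec5a (-0.20 to -0.056) and Sirpb1a (-0.25 to -0.069) stayed negative. The median tumor cell difference, a description, ran from 0.55 to 0.74 with 1 tumor cell array left out, where the lone array is assumed to vary like the other groups, and the median difference between the cell types' genotype differences from -0.73 to -0.53 with any 1 array left out. No paired analysis was possible because the labels give no replicate numbers that the groups share. Only 2 tumor cell arrays per host limit the host comparison, and Clec5a in tumor cells is near background.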
